A study of Mus musculus with 2 samples.

Results

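The 6 genes of the mouse miR-30 family, Mir30a, Mir30b, Mir30c-1, Mir30c-2, Mir30d and Mir30e, were described in microRNA-seq libraries of C2C12 cells. They were taken by gene identifier, through GENCODE M21 symbols, from the 2202 miRNA genes counted, and all 6 had reads in both libraries. C2C12 is a myoblast line from the injured thigh muscle of C3H mice, obtained from ATCC, whose myoblasts divide in rich medium and form multinucleated myotubes once serum is low. The libraries hold total RNA shorter than 30 nucleotides from 2 biological replicates of a single group, and the labels give no treatment, age or culture stage. Because no second condition exists, the values below describe a level in these cells and how far the libraries differed.

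The miR-30 family is conserved among vertebrates, and its members share the seed, the stretch near the 5′ end of a mature miRNA that pairs with target mRNAs. Each mouse hairpin yields a 5p form, which carries the family seed, and a 3p form from the other arm of the hairpin. The genes lie as pairs at 3 loci, and each pair joins a gene of the a, d and e kind with a gene of the b and c kind, which differ in the bases after the seed. Members are known to repress Snai1 and other mesenchymal regulators in epithelia, and Ccn2, a driver of collagen deposition, in heart muscle. In muscle cells they have been described as promoting differentiation.

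The mature forms are shown because the similarity between members decides which ratios below can be set against each other. Sequences are from a table of RefSeq entries on GRCm38.p6, in which 4 of the 6 genes, Mir30a, Mir30c-2, Mir30e and Mir30c-1, were matched, and those of Mir30b and Mir30d were not used here. They run 5′ to 3′ in lower case with bases 2 to 8 in capitals, which in the 5p forms are the family seed.
miR-30a-5p: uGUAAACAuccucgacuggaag
miR-30e-5p: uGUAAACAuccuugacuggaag
miR-30c-5p: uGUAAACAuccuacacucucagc
miR-30a-3p: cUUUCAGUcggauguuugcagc
miR-30e-3p: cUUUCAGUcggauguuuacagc
miR-30c-1-3p: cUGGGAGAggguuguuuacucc
miR-30c-2-3p: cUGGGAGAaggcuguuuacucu

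Counting from 1 at the 5′ end, miR-30e-5p differed from miR-30a-5p by C13U, and miR-30e-3p differed from miR-30a-3p by G18A. Outside those single bases the 22-base forms of the a and e genes were identical, although the genes lie on different chromosomes. miR-30c-5p shared the first 12 bases with miR-30a-5p and then diverged. The Mir30c-1 and Mir30c-2 genes encode the same miR-30c-5p, while their 3p forms differed by G9A, U12C and C22U from miR-30c-1-3p to miR-30c-2-3p. Allowing 1 mismatch, the 5p and 3p forms of Mir30a and Mir30e each matched the hairpins of these 2 genes and no others among the 1005 RefSeq hairpins used, a set without Mir30b and Mir30d, whereas the 3p forms of the c genes each matched only their own.

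The c hairpins are shown whole, with the longest stretch they share in capitals, since a read inside that stretch matches both genes.
Mir30c-1: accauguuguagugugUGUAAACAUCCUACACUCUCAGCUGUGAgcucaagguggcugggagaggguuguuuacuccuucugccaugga
Mir30c-2: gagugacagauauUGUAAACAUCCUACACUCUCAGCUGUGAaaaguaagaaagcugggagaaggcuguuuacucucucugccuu

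The shared stretch is 28 bases long and covers the whole of miR-30c-5p with the 5 bases after it. A count covers both arms of a hairpin, so the position of the reads on the c genes is not known. Reads that mapped to several places are listed under no gene, so reads that mapped to both c genes are in neither count. How many there were is not known. The levels of Mir30c-1 and Mir30c-2 are therefore uncertain and may be too low. Among the hairpins of the a, c and e genes, the next longest shared stretch was 18 bases, between Mir30a and Mir30e.

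On mm10, the build of the deposited tables, each pair lies on 1 strand. Mir30a (chr1:23272269-23272339, plus strand) overlaps no other annotated gene, and Mir30c-2 (chr1:23291701-23291784, plus strand) lies 19361 bases away in an exon of the lincRNA Gm27028. Mir30b (chr15:68337415-68337510, minus strand) overlaps an exon of the transcript Gm26621 by 16 bases. Mir30d (chr15:68341208-68341289, minus strand) lies 3697 bases from it, in an exon of the lincRNA Gm20732, and overlaps Gm37296 by 9 bases. Mir30e (chr4:120772606-120772697, minus strand) and Mir30c-1 (chr4:120769534-120769622, minus strand) lie 2983 bases apart, inside introns of Nfyc, which encodes a subunit of the NF-Y transcription factor. Mir30a and Mir30c-2 are the pair farthest apart.

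Gene-strand counts summed to 27661907 in replicate 1 and 15025315 in replicate 2, and levels are scaled to 1000000 of these counts (CPM). The libraries differed in makeup, since Mir21a took 23.1% of the counted reads in replicate 1 and 53.5% in replicate 2. Multi-mapping reads took 33.4% of all reads in replicate 1 and 22.8% in replicate 2. Of the 7 skeletal muscle genes, which summed to 2651 CPM in replicate 1 and 1052 CPM in replicate 2, Mir206 was the highest at 2559 and 1028 CPM, while Mir1a-1, Mir133a-1 and Mir133a-2 were at 0 in both. Markers of other cell types were lower in sum than the muscle genes. The 5 blood genes summed to 220 CPM in replicate 1 and 126 CPM in replicate 2, of which Mir142 alone had 215 and 122 CPM. The sums were 24.3 and 19.0 CPM for 7 epithelial genes and 105 and 110 CPM for 3 kidney and gut genes. The endothelial Mir126a stood at 213 CPM in replicate 1 and at 134 CPM in replicate 2, the hepatocyte Mir122 had 3.90 and 1.26 CPM, and the 6 neuronal genes had 2 reads and 0 reads. The muscle genes at 0 and the neuronal genes are copies that share a mature form with another gene. Reads that mapped to several places are listed under no gene, so the low counts of these copies do not show that the miRNAs were absent.

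The family as a whole took 17493 CPM in replicate 1 and 15338 CPM in replicate 2, or 1.64% ± 0.152 of the counted reads (SD, n = 2). In bulk RNA, fewer cells that express a gene and less of its RNA per cell cannot be told apart. Mir30a, the most abundant member, had 223145 reads (8067 CPM) in replicate 1 and 132440 reads (8814 CPM) in replicate 2, a mean of 8441 ± 529 CPM (SD, n = 2). It ranked 27th of the 2202 genes in replicate 1 and 14th in replicate 2. Mir30d, the other member that was slightly higher by CPM in replicate 2, had 97263 reads (3516 CPM) in replicate 1 and 59167 reads (3938 CPM) in replicate 2, a mean of 3727 ± 298 CPM.

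Mir30e, whose 5p form is a single base away from that of Mir30a, stood on the opposite side. It had 129283 reads (4674 CPM) in replicate 1 and 30039 reads (1999 CPM) in replicate 2, a mean of 3336 ± 1891 CPM (SD, n = 2). Mir30e was thus above Mir30d in replicate 1 and below it in replicate 2, and their means differed by less than the spread between the libraries.

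Genes of the b and c kind were lower, and all of them were higher by CPM in replicate 1. Mir30b had 27088 reads (979 CPM) in replicate 1 and 6836 reads (455 CPM) in replicate 2. Mir30c-2 had 5289 reads (191 CPM) in replicate 1 and 1440 reads (95.8 CPM) in replicate 2. Mir30c-1, the lowest member, had 1813 reads (65.5 CPM) in replicate 1 and 534 reads (35.5 CPM) in replicate 2. Their means were 717 ± 371, 144 ± 67.4 and 50.5 ± 21.2 CPM (SD, n = 2 for each). The order Mir30b, Mir30c-2, Mir30c-1 held in both libraries, and Mir30a was above every other member in both. CPM are not divided by hairpin length, which ran from 71 to 96 bases, and the order of the 6 means was the same per base of hairpin.

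**Figure D1:**
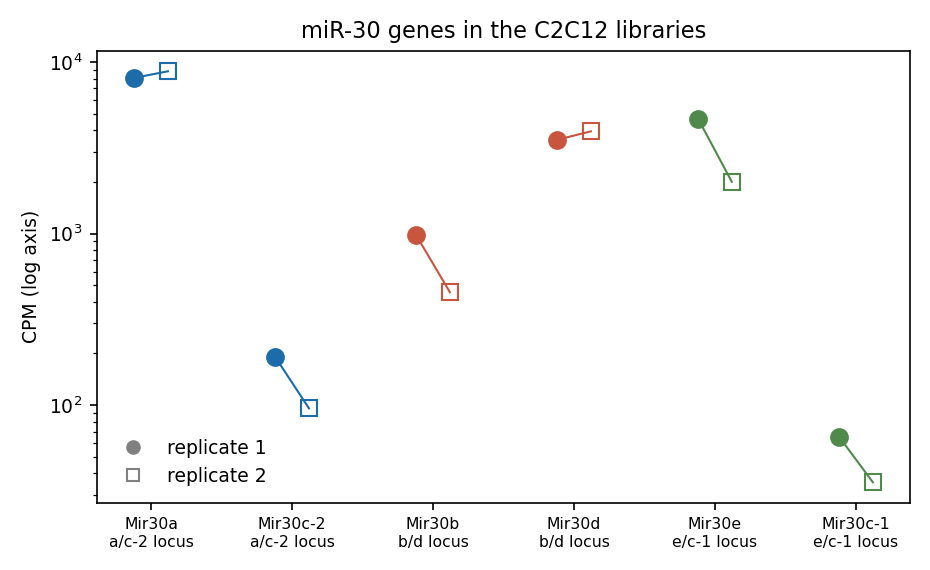
Level of each miR-30 gene in CPM of gene-strand counts (log axis), with filled circles for replicate 1, open squares for replicate 2 and colours for the locus. Mir30a and Mir30d sit slightly higher in replicate 2, and the other 4 genes sit lower there, with Mir30e at 4674 CPM in replicate 1 and 1999 CPM in replicate 2.

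The loci were compared by their share of the family's reads, which does not depend on scaling between libraries. Reads that mapped to both c genes are in none of these shares. The a/c-2 locus on chromosome 1 held 47.2% of the family's reads in replicate 1 (exact binomial 95% interval 47.1 to 47.3) and 58.1% in replicate 2 (57.9 to 58.3), and was the leading locus in both. The e/c-1 locus in Nfyc held 27.1% in replicate 1 (27.0 to 27.2) and 13.3% in replicate 2 (13.1 to 13.4). The b/d locus on chromosome 15 held 25.7% in replicate 1 (25.6 to 25.8) and 28.6% in replicate 2 (28.5 to 28.8). The lead of the a/c-2 locus over each of the others was larger than the spread between the libraries, while the order of the other loci turned round between them.

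The intervals hold only the error of counting, as PCR copies without molecular identifiers are not separate molecules, and n = 2 gives no test of the order. An exact two-sided sign-flip test over 2 libraries cannot give a p below 0.5. In CPM, the a/c-2 locus summed to 8584 ± 461, the b/d locus to 4444 ± 72.6 and the e/c-1 locus to 3387 ± 1912 (SD, n = 2 for each). The small SD of the b/d locus hid opposite changes, as Mir30d was higher by CPM in replicate 2 and Mir30b in replicate 1.

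The gene of the a, d and e kind had more reads than its partner at each locus. Mir30a had 42.2 times the reads of Mir30c-2 in replicate 1 and 92.0 times in replicate 2. Mir30e had 71.3 times the reads of Mir30c-1 in replicate 1 and 56.3 times in replicate 2. Mir30d had 3.59 times the reads of Mir30b in replicate 1 and 8.66 times in replicate 2. The b/d locus was the most even of the 3 in both libraries, and it is the locus that holds neither of the c genes. Together the c genes held 1.47% of the family's reads in replicate 1 and 0.857% in replicate 2. This share and the ratios to the c genes carry the uncertainty about reads that match both c genes.

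**Figure D2:**
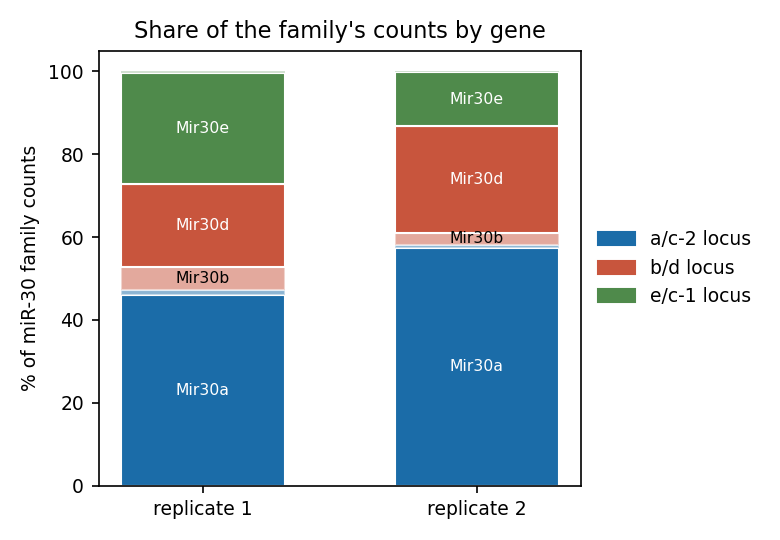
Share of the family's reads on each gene in percent, stacked for replicate 1 and replicate 2, with 1 colour per locus and paler bars for Mir30b and the thin, unlabelled Mir30c-2 and Mir30c-1. Mir30a and Mir30d together fill 66.2% of the bar in replicate 1 and 83.1% in replicate 2.

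Differences between the libraries were then set beside those of all genes. Ratios of replicate 1 over replicate 2 were taken after TMM scaling, which sets the bulk of genes level between the libraries, and again by library totals. A gene counted as apart when its ratio was at least 1.5-fold, with no test, since each side of the ratio is 1 library. Against library totals, TMM shifted all log2 ratios by -0.90. Of the 556 genes with at least 10 counts over both libraries, 39.2% were apart after TMM, with 15.8% higher in replicate 1 and 23.4% higher in replicate 2.

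Of the 6 members, 2 were apart after TMM, and both were higher in replicate 2. Mir30a had a log2 ratio of -1.03 (counting SE 0.005), or 2.04-fold higher in replicate 2, and Mir30d had -1.06 (counting SE 0.0075), or 2.09-fold higher in replicate 2. The other 4 were not apart, with log2 ratios of 0.33 for Mir30e, 0.21 for Mir30b, 0.10 for Mir30c-2 and -0.02 for Mir30c-1. The median over the 6 members was 0.04, beside -0.09 over the 556 genes. A count of 2 of 6 is near the share of all genes that were apart.

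The coefficient of variation that edgeR estimated between the replicates, 0.344, implies an SD of 0.70 for such a log2 ratio. Mir30d lay 1.51 and Mir30a 1.46 of these SDs from 0, and the other members at most 0.466. When the 138 genes at 100 CPM or more on average were put in order, Mir30d was the 10th and Mir30a the 11th counted from the gene highest in replicate 2. In the same order Mir30c-2 was the 91st, Mir30b the 103rd and Mir30e the 116th.

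Scaling decides which members count as apart. By library totals 70.5% of the 556 genes were apart, with 66.0% higher in replicate 1 and 4.50% higher in replicate 2. The 4 members apart by totals were all higher in replicate 1, namely Mir30e at 2.34-fold, Mir30b at 2.15-fold, Mir30c-2 at 1.99-fold and Mir30c-1 at 1.84-fold. Mir30a and Mir30d, at 0.915-fold and 0.893-fold of replicate 1 over replicate 2, were then not apart. Mir30a and Mir30d were higher in replicate 2 with TMM, DESeq2 size factors, library totals and totals without Mir21a alike. Mir30e, Mir30b and Mir30c-2 were higher in replicate 1 under the same scalings, whereas Mir30c-1 was at -0.02 with TMM and above 0 with the others. The different shares of Mir21a and of multi-mapping reads move with these ratios, and their part in them was not tested.

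**Figure D3:**
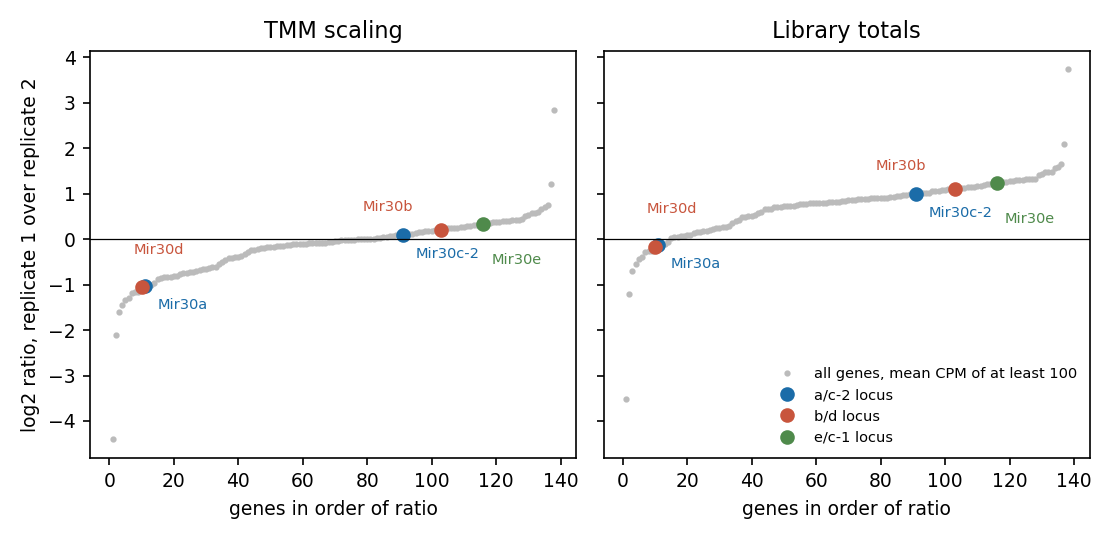
Log2 ratio of replicate 1 over replicate 2 for the 138 genes at 100 CPM or more on average, in order of ratio, after TMM scaling (left) and by library totals (right), with the miR-30 genes coloured by locus. Mir30a and Mir30d lie together near the low end of both panels and Mir30c-2, Mir30b and Mir30e in the upper part, while Mir30c-1 is below the CPM limit and not drawn.

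Ratios between members are free of any scaling, and they give the split more directly. All 15 pairs of members were compared between the libraries, as the ratio of the genes in replicate 1 against the same ratio in replicate 2. Mir30a over Mir30d, from different chromosomes, was 2.29 in replicate 1 and 2.24 in replicate 2, a change of 1.02-fold (counting 95% interval 1.01 to 1.04). Across all 9453 pairs of the 138 abundant genes the median change was 1.41-fold, and 4.40% of those pairs changed as little as Mir30a and Mir30d. No other pair of members kept its ratio as closely. As the closest of 15 pairs, picked after the values were seen, it cannot be read against that share as a pair named beforehand could. The 8 pairs that join Mir30a or Mir30d with another member changed between 2.02-fold and 2.62-fold. The 6 pairs among Mir30e, Mir30b, Mir30c-1 and Mir30c-2 changed between 1.08-fold and 1.27-fold. This grouping of the pairs was made after the values were seen and is a description.

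Members with near-identical forms were found on both sides of that split. Mir30a over Mir30e, the pair that differs by C13U in the 5p form, was 1.73 in replicate 1 and 4.41 in replicate 2, and the ratio in replicate 1 was 0.391 of that in replicate 2 (counting 95% interval 0.386 to 0.397). Mir30d over Mir30e was 0.752 in replicate 1 and 1.97 in replicate 2. As background, the 5p form of Mir30d is known to be close to those of Mir30a and Mir30e. Mir30c-2 over Mir30c-1, which share their 5p form, was 2.92 in replicate 1 and 2.70 in replicate 2. That change of 1.08-fold has a counting interval of 0.966 to 1.21, so a difference was not detectable at this depth. Reads that mapped to both c genes are in neither count, so this ratio cannot be read as one of the shared 5p form. Mir30b over Mir30c-2 was 5.12 in replicate 1 and 4.75 in replicate 2, and Mir30b over Mir30c-1 was 14.9 and 12.8.

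**Figure D4:**
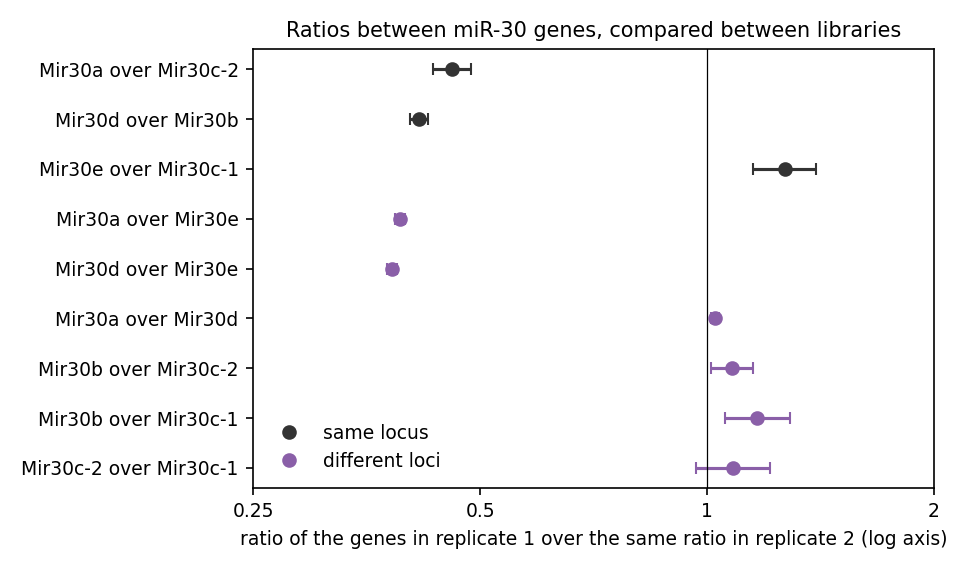
Change between the libraries in the ratio of 2 miR-30 genes, as the ratio in replicate 1 over the same ratio in replicate 2 (log axis), with bars for the counting 95% interval, black for genes of 1 locus and purple for genes of different loci. Mir30a over Mir30d sits at 1.02, while Mir30a over Mir30c-2, Mir30d over Mir30b, Mir30a over Mir30e and Mir30d over Mir30e lie between 0.382 and 0.459.

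Genes of 1 locus did not keep their ratio at the a/c-2 and b/d loci. Mir30a over Mir30c-2 in replicate 1 was 0.459 of its value in replicate 2, and Mir30d over Mir30b was 0.415 of it. Mir30e over Mir30c-1 was 1.27 times as high in replicate 1 as in replicate 2. For comparison, 54 other pairs of neighbouring miRNA genes were taken, with at most 20000 bases between them on 1 strand and a mean CPM of at least 10 each. The widest gap in these other pairs was 14365 bases, below the 19361 bases between Mir30a and Mir30c-2. Some of these other pairs share a gene, such as Mir362, which was paired with Mir501 and with Mir188. The log2 ratios of replicate 1 over replicate 2 differed within those pairs by a median of 0.52, and by at least 1 in 9 of them. The difference was 1.27 for Mir30b and Mir30d, 1.12 for Mir30a and Mir30c-2 and 0.34 for Mir30e and Mir30c-1. Counted from the largest among all 57 pairs, they stood 4th, 10th and 39th. Reads that mapped to both c genes are in neither count, so the values and places of the a/c-2 and e/c-1 pairs are uncertain.

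**Figure D5:**
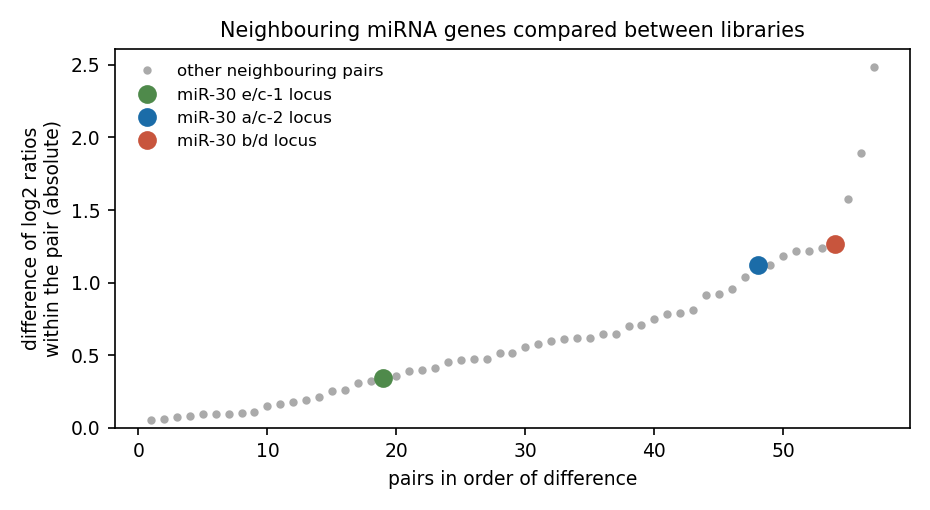
Absolute difference between the log2 library ratios of 2 neighbouring miRNA genes for 57 pairs in order of size, with the miR-30 pairs coloured by locus and other pairs in grey. The b/d pair at 1.27 and the a/c-2 pair at 1.12 lie among the larger differences, and the e/c-1 pair at 0.34 lies below the median.

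The strand of counting mattered for Mir30e alone among the members. Mir30f (chr4:120772606-120772697, plus strand) is annotated at the same positions on the other strand. No read was counted on its strand in either library, which allows at most 0.108 CPM in replicate 1 and 0.20 CPM in replicate 2 (3 counts). In the column for either strand Mir30e was listed at 0 in both libraries. Its gene-strand reads equalled 15.3% of the ambiguous reads of that column in replicate 1 and 12.3% in replicate 2. Mir30a had 1 read on its opposite strand in replicate 1, and the others had 0 there in both libraries.

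Of the 1738 mature forms in the RefSeq table used, 5 carried the family seed, from 5 genes, namely the 4 members with a sequence and Mir384. Mir384 lies on the X chromosome at chrX:105344282-105344369 (minus strand), and its form is printed because it shares the seed and little else.
miR-384-5p: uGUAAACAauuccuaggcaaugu
Mir384 had 0 reads in replicate 1 and 1 read in replicate 2.

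Families of similar layout were set beside miR-30. The miR-29 family, repressors of collagen genes, summed over 4 genes to 19587 CPM in replicate 1 and to 10453 CPM in replicate 2, led by Mir29a at 19150 and 10128 CPM. The miR-181 family summed over 6 genes to 3401 CPM in replicate 1 and to 2182 CPM in replicate 2, led by Mir181c at 1258 and 681 CPM. TMM log2 ratios spanned 1.39 within the miR-30 family, 0.79 within the miR-29 family and 1.94 within the miR-181 family. The spread among miR-30 members thus lay between those of the other families, but this order rests on 1 gene, Mir181a-2. It had a log2 ratio of -1.95, from 768 reads in replicate 1 and 868 in replicate 2. The other miR-181 genes ran from -0.91 to -0.01, a narrower range than that of miR-30. Both of these families hold copies that share a mature form, such as Mir29b-1 with Mir29b-2 and Mir181a-1 with Mir181a-2. Reads that mapped to several places are listed under no gene, so the family sums, the leading genes and the spreads are uncertain.

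Among 19 genes known from myoblast differentiation, 15 had enough counts, of which 2 were at least 1.5-fold higher in replicate 1 after TMM, beside 15.8% of the 556 genes, and 3 in replicate 2, beside 23.4%. Their median log2 ratio was -0.06, beside -0.09 over the 556 genes. By library totals 10 of the 15 were higher in replicate 1 by that fold, beside 66.0% of all genes, and 0 in replicate 2, beside 4.50%. The shares of the list were near those of all genes. After TMM the genes higher in replicate 1 were the muscle-specific Mir133b, with 88.0 CPM in replicate 1 and 20.4 CPM in replicate 2, and Mir486, with 3.94 and 1.13 CPM. Those higher in replicate 2 were Mir27b, Mir29c and Mir24-1, and these 5 genes were named after their values were seen.

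The non-member closest to each member in level was found by distance in TMM-scaled log2(CPM + 1) over the 2 libraries. It was Mir27a for Mir30a, at 9007 CPM in replicate 1 and 6694 CPM in replicate 2, and Mir125b-1 for Mir30d, at 5341 and 3375 CPM. Both of these genes were higher by CPM in replicate 1, unlike the members they stand beside. After TMM both were higher in replicate 2, as those members were, with log2 ratios of -0.47 for Mir27a and -0.24 for Mir125b-1. For Mir30e it was Mir125a, at 4713 and 1759 CPM. For Mir30b it was Mir320, at 823 and 405 CPM, and for Mir30c-2 it was Mir193a, at 174 and 101 CPM. The distances were 0.43 for Mir30a, 0.64 for Mir30d, 0.19 for Mir30e, 0.30 for Mir30b and 0.15 for Mir30c-2 on the log2 scale. Mir30c-1, below 100 CPM, was not matched.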

How the data were processed

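The deposited tables hold the authors' whole-number read counts per miRNA gene in columns for either strand, the gene's strand and the opposite strand. The build, mm10, and the annotation, GENCODE M21, are named in the deposited readme files, and the labels point to an adapter trimming protocol. The sources used here name neither the aligner nor the counter. Rows that name no gene were left out, at 49.7% of reads for replicate 1 and 38.8% for replicate 2. All 2202 identifiers matched GENCODE M21, and the gene-strand column was used.

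CPM used gene totals. Ratios used TMM scaling from edgeR 4.0.16 on genes with at least 10 counts, with a prior count of 0.5, and DESeq2 1.42.0 size factors as an alternative. R 4.3.3, Python 3.11.15, scipy 1.17.1 and matplotlib 3.10.9 were used. The ratio calculation was tested on simulated data that held counting error only. Those data lack the spread between replicates seen here, so the test covers the calculation and not the reliability of the ratios. With 1 group there is no test between conditions, and the labels call the samples biological replicates without saying that they were separate cultures. Named genes were the members, genes sharing the seed, the closest non-member of each member with a mean CPM of at least 100, and the highest gene of comparison families. The members and lists were chosen with earlier results of these data known.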

Additional observations from a re-analysis of the deposited data

Results flagged for a closer look

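Some entries other than the gene-strand counts on genes were far above the limit that a count of 0 allows, and no control libraries were analysed here. The column for the opposite strand listed 129283 reads in replicate 1 and 30039 reads in replicate 2 against Mir30f. These are the same numbers as the gene-strand reads of Mir30e at those positions. They are thus the reads of Mir30e listed again, not further reads. Reads that mapped to several places numbered 18382947 in replicate 1 and 5599235 in replicate 2, and the tables do not say how many of them match the shared miR-30c-5p.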

How the results depend on the processing

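Of 40 alternatives to the family and locus levels, locus shares, family ratio and count of genes apart, 23 stayed within 1 SD of the reported value, within counting error for the family ratio, or within 1.5 times the reported count. Leaving out each library in turn gave a family level of 15338 or 17493 CPM. The e/c-1 locus then stood at 2035 CPM and 13.3% without replicate 1 and at 4739 CPM and 27.1% without replicate 2. Each of 2 libraries lies within 1 SD of their mean whatever the values. These settings for levels and shares, which are among the 23, therefore could not leave that range and show no stability. With Mir21a out of the total, the family level was 27865 CPM, the a/c-2 locus 14951, the b/d locus 7646 and the e/c-1 locus 5268 CPM. With counts of either strand, which list Mir30e at 0, the family fell to 13390 CPM, the b/d locus stood at 4551 and the e/c-1 locus at 51.9 CPM, with locus shares of 65.6% for a/c-2, 34.0% for b/d and 0.389% for e/c-1. The family's log2 ratio of replicate 1 over replicate 2 was -0.71 with TMM and reversed to 0.19 by library totals. It was -0.65 with DESeq2 size factors, -0.54 by totals without Mir21a, -0.67 with genes of at least 1 count and -0.95 with counts of either strand, and the cause of the reversal was not tested. Genes apart by 1.5-fold numbered 218 of 556 with TMM, 392 of 556 by library totals, 398 of 804 with at least 1 count and 94 of 299 with at least 100 counts, where the number of genes tested differs, and 88 of the 218 but 367 of the 392 were higher in replicate 1. By totals without Mir21a, 115 of 212 were. The same settings for single members were chosen after seeing the data, and 15 of these 35 values stayed within counting error. No paired analysis was possible because the series has 1 group. Depth limits the c genes most, with 534 reads on Mir30c-1 in replicate 2.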
